A study of Drosophila melanogaster with 36 samples.

Results

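Drosophila_58 and Drosophila_134 are 2 of 9 isogenic lines of Drosophila melanogaster whose embryos were profiled at 5 h and 8 h. An isogenic line is a fly stock inbred until its members share nearly one genome. The 4 arrays of Drosophila_58 and the 4 of Drosophila_134 were taken by the line number in the array titles, which gave 8 of the 36 arrays in the series, each line having 2 RNA samples at each time. The study set out to measure how transcript levels vary among genotypes in early development. The labels name no treatment, parental strain or mutation, and both lines enter as inbred stocks of whole embryos. Each array measured total RNA on Affymetrix one-colour probe sets. The other 7 lines (27 arrays) served to estimate the spread between RNA samples, and 1 array at 5 h names no line. Nothing in the labels says that the 2 RNA samples of a line and time came from separate collections, so p-values measure only the spread between RNA samples, which may be technical.

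Early in its development the Drosophila embryo passes through cellularisation, when the nuclei of the syncytium are closed off by membranes. Gastrulation and germ-band extension follow, and then early organ formation. Maternal transcripts laid into the egg are cleared while zygotic genes take over, so many genes are on for a short window and their level depends on the age of the embryo. Later in embryogenesis the epidermis secretes an apical matrix and then a cuticle of chitin and cuticle proteins, a task that draws heavily on the secretory pathway.

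The arrays of the 2 lines differed in brightness and in RNA quality as well as in gene values. Total deposited intensity was 189805 and 234801 at 5 h and 190386 and 169245 at 8 h in Drosophila_58, against 102204 and 110030 at 5 h and 74632 and 46261 at 8 h in Drosophila_134, whose replicate 2 at 8 h was the dimmest of the 36. The number of probe sets brighter than the negative-control limit was 7421 to 8005 of 18769 in Drosophila_58 and 3156 to 5830 in Drosophila_134. The 3' to 5' signal ratio of the Act5C control, which is high where RNA is broken or cDNA is short, was 16.0 to 24.7 in Drosophila_58 and 20.2 to 100.8 in Drosophila_134. A further actin control had 3.64 to 5.78 in Drosophila_58 and 7.34 to 295.09 in Drosophila_134. The eIF-4a control had 9.47 to 16.2 and 26.75 to 128.74, so neither of these overlapped. For the Gapdh control the ratios were 1.91 to 4.81 and 1.86 to 64.51, which overlap. Within Drosophila_134 at 5 h, replicate 1 had a summed intensity of 377.2 over 104 cuticle protein genes and 183.9 over 14 muscle genes, and replicate 2 had 89.8 and 16.1. Arrays of one line and time correlated at r of 0.976 to 0.979 in Drosophila_58 and 0.942 to 0.955 in Drosophila_134 across probe sets, and arrays of the 2 lines at r of 0.844 to 0.912, as a description since probe sets are not independent. The part that brightness, RNA quality and later-embryo transcripts play in the line differences below was not tested; counts of calls with array brightness as a covariate are given beside the gene lists. Markers of embryos were present across the series. A gene or probe set counts as measured if it was above the limit on at least 18 of the 36 arrays. This held for 8 of 8 pair-rule genes, but for 1 of 15 eggshell genes and 0 of 23 adult midgut proteases. The number of arrays limits the precision.

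Genes called higher in Drosophila_58 included those of the secretory pathway, iron storage, heat shock and ribosomes. Genes called lower included early zygotic and cellularisation genes at 5 h and cuticle genes at 8 h. Values are quantile-normalised intensities, and differences are Drosophila_58 minus Drosophila_134 on the log2(intensity + 16) scale with the standard error from the limma fit; they understate the change of dim genes. Called means an adjusted p of at most 0.05 over 18769 probe sets in limma. Averaged over both times, 1505 probe sets were called (8.02%), 846 higher in Drosophila_58 (4.51%) and 659 lower (3.51%), and 113 of them differed at least 2-fold (0.602%). The 2 arrays of each line did not overlap at either time in 725 of the 846 and 484 of the 659, while 8.67% and 6.92% of all probe sets did not overlap in the 2 directions. The genes named below for the largest differences over both times were picked only among those without overlap. For them a lack of overlap is part of the choice and adds no support. At 5 h 808 probe sets were called (4.3%), 406 higher (2.16%) and 402 lower (2.14%), and at 8 h 743 were called (3.96%), 407 higher (2.17%) and 336 lower (1.79%). The difference itself changed between the times in 85 probe sets (0.453%), with a larger value at 8 h in 60 (0.32%) and a smaller one in 25 (0.133%).

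The split between the directions rests on how the arrays are scaled. Over both times the calls were 3636 higher and 64 lower on the deposited scale, 3020 and 275 with arrays centred on their median, and 807 and 1084 with arrays brought to a common 90th percentile. At 5 h they were 1779 higher and 61 lower on the deposited scale, and 1545 of 1673 were higher with centred arrays. At 8 h they were 1584 and 26 on the deposited scale, 1266 and 67 centred, and 453 and 771 at a common 90th percentile. The median difference of measured probe sets was 0.02 after quantile normalisation, 0.32 on the deposited scale, 0.28 centred and 0.00 at a common 90th percentile. All 846 higher probe sets kept their sign in these 3 scalings and 739 were called in each, whereas 384 of the 659 lower ones kept their sign and 64 were called in each. The deposited and centred scales shift differences upward, as their medians of 0.32 and 0.28 show. They favour higher calls by construction, so this contrast does not show that the higher calls are firmer. With array brightness as a covariate, 146 probe sets were called, 108 higher and 38 lower, 104 of them among the 846 and 32 among the 659.

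In the secretory pathway the calls ran in 1 direction. In a list of 33 genes for entry of proteins into the endoplasmic reticulum and their folding there, put together after these data were seen, 20 were called higher in Drosophila_58 over both times and 0 lower. This is 60.6% of the list, against 5.62% of all 11982 genes called higher and 4.27% called lower. Measured genes were called more often, 17.4% to 18.7% of them in either direction on the X, 2L, 2R, 3L and 3R. Shares of all genes are thus a low yardstick for lists of mostly measured genes, here and below. The list's median difference was 0.51, against -0.01 over all genes, and 31 of its 33 genes were measured. At 5 h 15 were called higher (2.67% of all genes) and at 8 h 9 (2.7%). With array brightness as a covariate 8 were called over both times, and without replicate 2 of Drosophila_58 at 8 h 5 were called at 8 h. In whole-embryo RNA, fewer cells that make a transcript and less transcript per cell cannot be told apart, here and below.

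Sec61gamma, a subunit of the channel through which new proteins cross the endoplasmic reticulum membrane, read 67.5 and 74.5 at 5 h and 64.4 and 68.1 at 8 h in Drosophila_58. In Drosophila_134 it read 5.58 and 1.59 at 5 h and 7.49 and 3.39 at 8 h. All 4 arrays of Drosophila_58 lay far above all 4 of Drosophila_134, and the difference was 2.05 ± 0.16 (adjusted p = 8.6e-10). The channel's pore subunit Sec61alpha had 62.1 and 57.4 at 5 h and 71.2 and 79.3 at 8 h in Drosophila_58, against 12.3 and 10.1 at 5 h and 33.7 and 14.9 at 8 h in Drosophila_134, a difference of 1.35 ± 0.14 (adjusted p = 3.9e-08). Its arrays did not overlap either. The small subunit Sec61beta was higher in Drosophila_58 at 5 h, by 1.34 ± 0.24 (adjusted p = 0.00065), while at 8 h its difference was 0.21 (adjusted p = 0.84), and the change between the times was not called (adjusted p = 0.18).

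Partners of the channel were called higher as well over both times. TRAM, a membrane protein beside the channel, was higher by 0.91 ± 0.12, and Trp1, the Sec62 subunit, by 0.95 ± 0.09. CG2852, a predicted cyclophilin, read 209 and 204 at 5 h and 148 and 177 at 8 h in Drosophila_58, against 46.9 and 43.0 at 5 h and 61.2 and 54.2 at 8 h in Drosophila_134 (1.57 ± 0.16, adjusted p = 5e-08). The chaperone calnexin, Cnx99A, was higher by 1.03 ± 0.12, the retrieval receptor KdelR by 0.82 ± 0.14 and the cargo receptor bai by 0.86 ± 0.12. Nacalpha, which binds nascent chains at the ribosome, was higher over both times by 1.54 ± 0.25 (adjusted p = 8.6e-05). Its replicates in Drosophila_134 at 5 h were 38.1 and 5.12, and with array brightness as a covariate its call was lost (adjusted p = 0.35).

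Ferritin, the secreted iron-storage complex of insects, was higher in Drosophila_58 in both of its main chains. The heavy chain Fer1HCH read 165 and 183 at 5 h and 221 and 229 at 8 h in Drosophila_58, against 62.9 and 52.4 at 5 h and 85.1 and 57.4 at 8 h in Drosophila_134 (1.43 ± 0.15, adjusted p = 8.7e-08). For the light chain Fer2LCH the values were 162 and 151 at 5 h and 200 and 194 at 8 h in Drosophila_58, against 43.0 and 27.5 at 5 h and 96.9 and 83.2 at 8 h in Drosophila_134 (1.39 ± 0.15, adjusted p = 1.6e-07). Neither chain overlapped between the lines, which the rule that named them required. Both chains stayed called with array brightness as a covariate. Together with the transferrin Tsf2, higher by 0.84 ± 0.09, they made 3 of 11 iron-handling genes called, in a list also put together after these data were seen. The share was 27.3%, against 5.62% of all genes called higher.

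Further differences without overlap at either time concerned single genes of varied roles. The beta3-tubulin gene betaTub60D, a tubulin of the mesoderm and its muscles, read 66.0 and 79.3 at 5 h and 139 and 156 at 8 h in Drosophila_58, against 13.4 and 0.783 at 5 h and 34.5 and 7.56 at 8 h in Drosophila_134 (2.12 ± 0.23, adjusted p = 1.6e-07). No array of Drosophila_134 reached the lowest of Drosophila_58 at the same time, although the muscle list as a whole had 1 of 14 genes called. That share, 7.14%, was near the 5.62% of all genes called higher. RpS5b, one of the pair of genes for ribosomal protein S5 whose near-identical copies leave its values uncertain, was higher by 1.57 ± 0.18, and the lysosomal thiol reductase GILT1 by 1.39 ± 0.17. Tina-1 was higher by 1.43 ± 0.13, and the odorant-binding protein gene Obp99a by 1.76 ± 0.23, with 2.56 ± 0.33 at 5 h and 0.96 ± 0.33 (adjusted p = 0.11) at 8 h. Laminin chains of the basement membrane were higher too, LanA by 1.19 ± 0.17 and LanB2 by 0.88 ± 0.13, as was papilin, Ppn, by 0.88 ± 0.16. They belong to the haemocyte and fat body list, in which 6 of 23 genes were called higher (26.1%) and 1 lower (4.35%), the collagen IV chain vkg (-0.49 ± 0.15). Among all genes these shares were 5.62% and 4.27%. The call of vkg was lost in 7 of the 8 fits that left out 1 array (adjusted p up to 0.16), all but the one without replicate 2 of Drosophila_58 at 8 h, and the 6 higher calls of the list came down to 3 with the brightness covariate and 3 without that array or without replicate 2 of Drosophila_134 at either time.

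**Figure D1:**
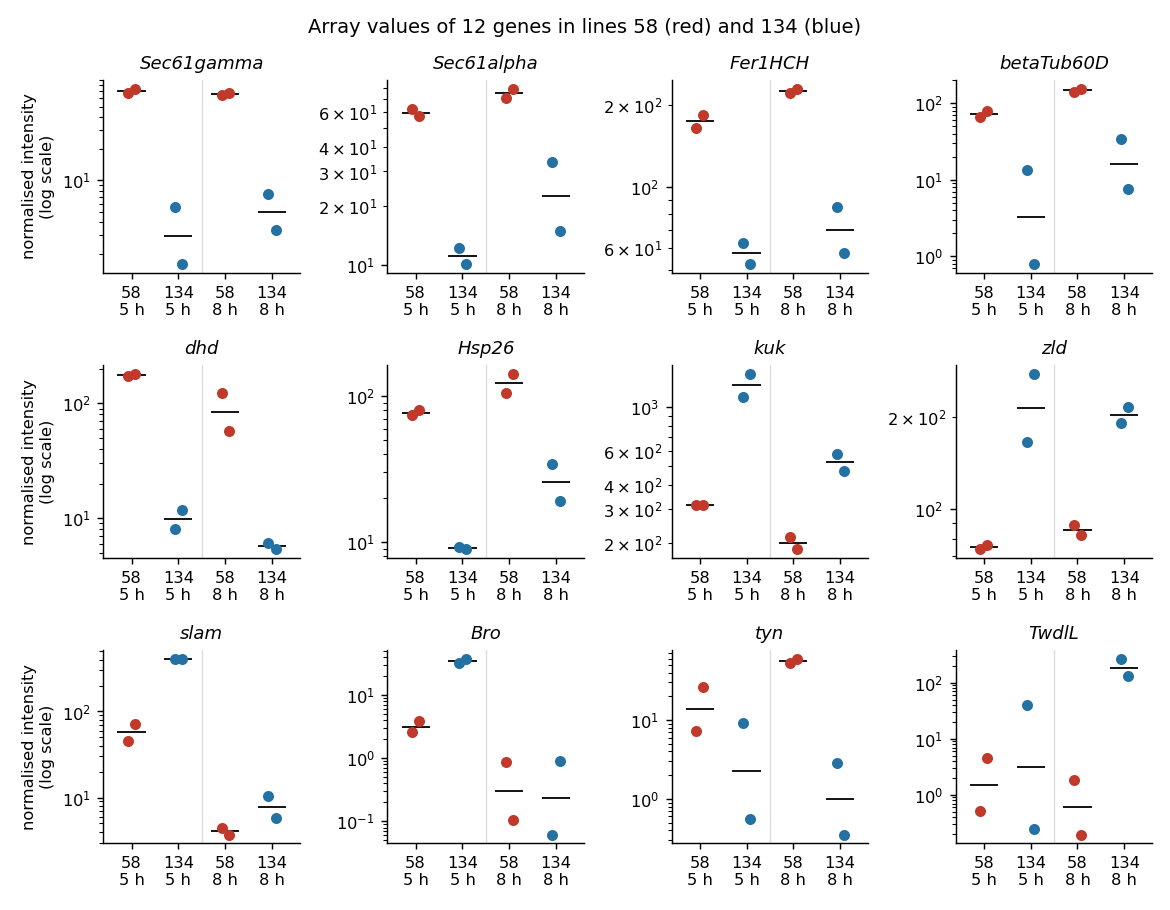
Quantile-normalised intensity (log axis) of 12 genes on each array of Drosophila_58 (red) and Drosophila_134 (blue) at 5 h and 8 h; the bar is the geometric mean of the 2 arrays. In the upper row every array of Drosophila_58 lies above every array of Drosophila_134 at the same time, kuk and zld lie below at both times after quantile normalisation, though both turn positive at 8 h on the deposited scale and with centred arrays, slam and Bro were called lower at 5 h alone, and tyn and TwdlL differ in opposite directions at 8 h.

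Heat shock genes, which code for chaperones, were mostly higher in Drosophila_58, but these calls moved with array brightness. Of 11 genes 6 were called higher over both times (54.5%, against 5.62% of all genes) and 1 lower (9.09%, against 4.27%). The median difference was 0.78, and with array brightness as a covariate 0 were called higher and 1 lower. The small heat shock gene Hsp26 read 74.2 and 80.0 at 5 h and 106 and 143 at 8 h in Drosophila_58, against 9.25 and 8.88 at 5 h and 34.2 and 19.2 at 8 h in Drosophila_134 (1.81 ± 0.37, adjusted p = 0.0012). Its groups did not overlap, and with the brightness covariate the adjusted p was 0.65. Hsp27 was higher by 1.60 ± 0.25, and the mitochondrial chaperones Hsp60A and Hsc70-5 by 1.21 ± 0.22 and 1.03 ± 0.15. Hsc70-4, the abundant constitutive chaperone, was the lower one at -0.50 ± 0.10, but it turned to 1.23 on the deposited scale, 1.20 with centred arrays and 0.08 at a common 90th percentile.

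Genes of protein synthesis were called in both directions. Of 41 cytoplasmic ribosomal protein genes 17 were called higher in Drosophila_58 over both times and 1 lower, with a median of 0.19, and 2 were called higher with array brightness as a covariate. RpS30 read 284 and 280 at 5 h and 290 and 294 at 8 h in Drosophila_58, against 127 and 115 at 5 h and 170 and 135 at 8 h in Drosophila_134 (1.00 ± 0.22, adjusted p = 0.0022), and lost its call with that covariate (adjusted p = 0.90). Of 27 translation factors 8 were called higher and 3 lower, against 23 and 0 on the deposited scale, 20 and 0 with centred arrays, and 0 and 0 with the brightness covariate (9 with an unadjusted p under 0.05 in limma). The 8 came down to 5 without replicate 2 of Drosophila_134 at either time, either replicate of Drosophila_58 at 8 h or its replicate 1 at 5 h. The cap-binding protein eIF4E1 was higher by 1.18 ± 0.18 and the start-site factor eIF1 by 0.84 ± 0.15, whereas the helicase eIF4A and the exchange factor eEF1delta were lower at -0.86 ± 0.11 and -0.82 ± 0.13, signs that turned to 0.83 and 0.29 on the deposited scale and to 0.80 and 0.26 with centred arrays. In energy metabolism enolase, Eno, was higher by 1.33 ± 0.21, with 3 of 10 glycolysis genes called higher and 0 lower (1 without replicate 2 of Drosophila_134 at either time or replicate 1 of Drosophila_58 at 5 h). Among 72 respiratory chain and ATP synthase genes 6 were called higher (8.33%) and 5 lower (6.94%), with a median of -0.01. These shares were near those of all genes, 5.62% higher and 4.27% lower. On the deposited scale 30 of the list were called higher and 1 lower. The ATP synthase subunit ATPsynbeta was higher by 1.26 ± 0.19, and the complex I subunit ND-39 lower at -0.70 ± 0.12, which was -0.35 and not called on the deposited scale (adjusted p = 0.11). With the brightness covariate 0 genes of either energy list were called in limma (unadjusted p under 0.05 in 1 glycolysis and 8 respiratory genes), Eno and ATPsynbeta among those lost (adjusted p = 0.44 and 0.52).

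Some transcripts that mothers lay into the egg were called higher in Drosophila_58. The maternal thioredoxin gene dhd, which acts in the egg-to-embryo transition, read 174 and 181 at 5 h and 124 and 57.4 at 8 h in Drosophila_58, against 8.12 and 11.8 at 5 h and 6.14 and 5.34 at 8 h in Drosophila_134. The arrays did not overlap at either time, and the difference over both times was 2.56 ± 0.57 (adjusted p = 0.0028). Drosophila_134 ranked lowest of the 9 lines. At 5 h alone the difference in dhd was 2.90 ± 0.81 (adjusted p = 0.032), a call lost without any one of the arrays at 5 h. At 8 h alone it was not called (2.22 ± 0.81, adjusted p = 0.14). With array brightness as a covariate the difference in dhd over both times was 0.76 (adjusted p = 0.83). At 5 h oskar, osk, which assembles the germ plasm, was higher by 1.17 ± 0.31, as was BicC, a repressor of translation, by 1.17 ± 0.30. Jabba, which anchors histones on lipid droplets, was higher at 5 h by 1.5 ± 0.43 and the perilipin Lsd-2 by 1.25 ± 0.31. These 4 calls at 5 h were lost without replicate 2 of Drosophila_58 or either replicate of Drosophila_134 at 5 h (adjusted p from 0.056 for osk to 0.31 for Lsd-2), and those of osk and Jabba without replicate 1 of Drosophila_58 too (0.095 and 0.25). Over both times Jabba stood at 1.10 ± 0.30, which turned to -0.18 with the brightness covariate. In the list of maternal egg activation and early cycle genes 5 of 24 were called higher over both times and 1 lower, the co-activator gene nej (-0.83 ± 0.14), with a median of -0.03 and 0 called in either direction by limma with the brightness covariate (5 with an unadjusted p under 0.05). The 5 and 1 were 20.8% and 4.17% of the list, against 5.62% and 4.27% of all genes. Without replicate 1 of Drosophila_134 at 5 h, whose summed level for these genes was 393.4 against 764.3 in replicate 2, 0 of the list were called higher at 5 h, against 5 with it; without replicate 2 of Drosophila_58 at 5 h there were 0 as well, and 1 without replicate 1 of Drosophila_58 or replicate 2 of Drosophila_134 at 5 h. Over both times the 5 came down to 2 or 3 without replicate 1 of Drosophila_134 at 5 h, its replicate 2 at 8 h, or replicate 2 at 5 h or replicate 1 at 8 h of Drosophila_58. Among 16 germ cell genes 4 were called higher and 0 lower over both times, and 2 were without replicate 1 of Drosophila_134 at 5 h, its replicate 2 at 8 h or replicate 2 of Drosophila_58 at 5 h. With the brightness covariate 0 germ cell genes were called in limma (2 with an unadjusted p under 0.05). The 4 called higher without it were 25% of the list.

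**Figure D2:**
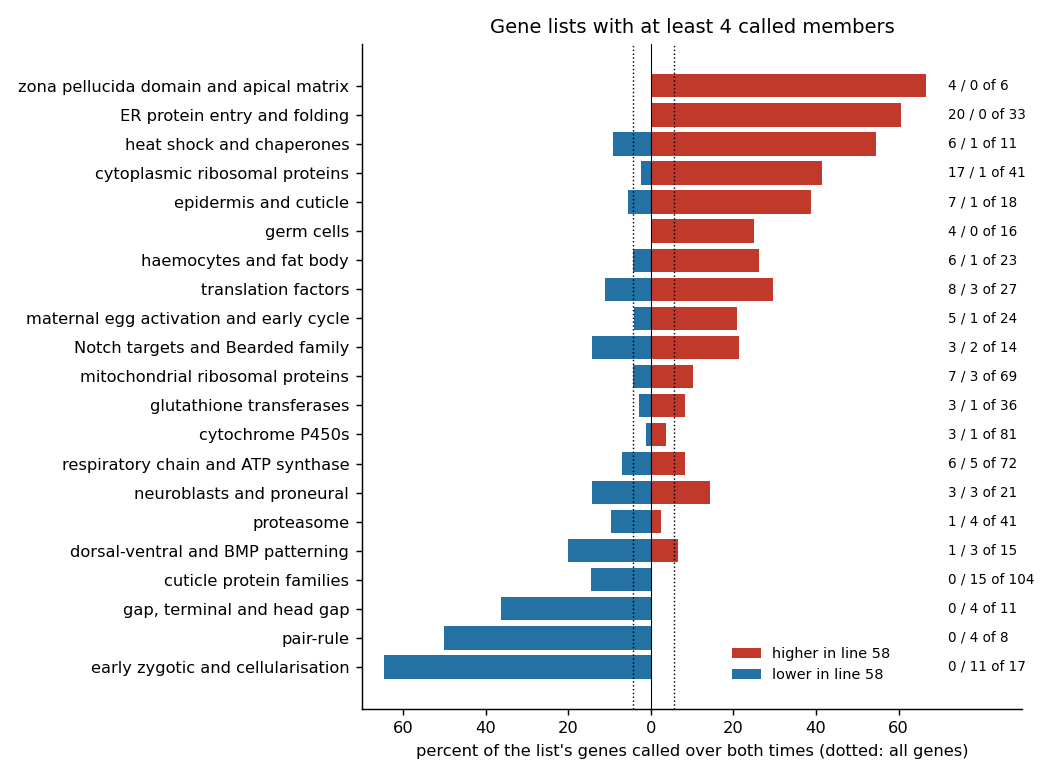
Percent of each gene list called over both times, higher in Drosophila_58 (red, to the right) or lower (blue, to the left), for lists with at least 4 called genes; numbers at the right give genes called higher and lower out of the list, and dotted lines mark 5.62% and 4.27% of all genes. The medians of the lists for gap, pair-rule, proteasome, dorsal-ventral, neuroblast, maternal and both mitochondrial groups, and of some lists near 0, turn from below 0 to above 0 on the deposited scale and with centred arrays, and the endoplasmic reticulum and zona pellucida lists were put together after these data were seen.

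The genes called lower in Drosophila_58 over both times that are named next have varied roles. kuk codes for Kugelkern, a nuclear envelope protein by which nuclei lengthen during cellularisation. It read 315 and 315 at 5 h and 215 and 186 at 8 h in Drosophila_58, against 1127 and 1490 at 5 h and 579 and 471 at 8 h in Drosophila_134, a difference of -1.65 ± 0.14 (adjusted p = 9.8e-10). Both arrays of Drosophila_58 lay below both of Drosophila_134 at each time, and Drosophila_58 ranked lowest and Drosophila_134 highest of the 9 lines. On the deposited scale the difference was -0.53 at 5 h and turned to 0.50 at 8 h, and with centred arrays it was -0.56 and 0.46. With array brightness as a covariate it stayed called (-1.53, adjusted p = 0.00011).

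zld, the factor that opens the zygotic genome, read 73.7 and 76.3 at 5 h and 88.7 and 82.1 at 8 h in Drosophila_58, against 165 and 276 at 5 h and 191 and 215 at 8 h in Drosophila_134 (-1.22 ± 0.17, adjusted p = 5.6e-06). These arrays did not overlap, but at 8 h the sign turned on the deposited scale (0.28) and with centred arrays (0.24). Sumo, the small protein modifier, was lower at -1.27 ± 0.11, the satellite-binding protein gene D1 at -1.16 ± 0.16 and the nuclear prolyl isomerase gene Fkbp39 at -1.05 ± 0.17; on the deposited scale these were 0.31, 0.01 and 0.07, and with centred arrays 0.28, -0.02 and 0.04. Klp10A, a kinesin that takes microtubules apart, read 5.95 and 9.90 at 5 h and 6.85 and 4.61 at 8 h in Drosophila_58, against 19.7 and 33.0 at 5 h and 43.1 and 44.1 at 8 h in Drosophila_134 (-1.13 ± 0.12, adjusted p = 9.3e-08). Its groups did not overlap, and it stayed negative in each scaling and called with the brightness covariate.

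Other genes that were called lower over both times, had no overlap at either time and stayed negative in each scaling when averaged over the times were the ARID-domain gene retn (-1.26 ± 0.15), the zinc-finger gene hang (-1.20 ± 0.15), the nuclear import receptor gene Tnpo (-1.0 ± 0.20), the small nucleolar RNP gene Nop10 (-1.08 ± 0.18), Taf4 of the general transcription machinery (-0.94 ± 0.13), the RNA polymerase II subunit gene Polr2J (-0.94 ± 0.14) and link (-0.92 ± 0.17). At 8 h alone the values on the deposited scale turned to 0.15 for retn, 0.51 for Tnpo, 0.23 for Taf4 and 0.17 for Polr2J, and with centred arrays to 0.11, 0.47, 0.19 and 0.13. At 5 h the deposited scale gave -0.88, -0.61, -0.71 and -0.86 for them. Their averaged differences on that scale were thus smaller in size than those given above, with that of Tnpo near 0. The cyclin gene CycE was called lower too (-0.89 ± 0.17). Genes with only a number were found among both sets. CG9184 read 58.9 and 143 at 5 h and 250 and 400 at 8 h in Drosophila_58, against 29.3 and 1.05 at 5 h and 8.62 and 0.887 at 8 h in Drosophila_134 (3.0 ± 0.29, adjusted p = 2e-08). CG13427 read 125 and 109 at 5 h and 116 and 65.4 at 8 h in Drosophila_58, against 706 and 885 at 5 h and 264 and 303 at 8 h in Drosophila_134 (-2.06 ± 0.29, adjusted p = 6.7e-06). CG15628 (-1.09 ± 0.11), CG8960 (-1.20 ± 0.22) and CG13551 (-1.10 ± 0.17) were lower as well, CG13551 turning to 0.01 on the deposited scale, where CG13427 also turned at 8 h (0.02). Of the genes from kuk to CG13551 given as lower over both times, kuk, Sumo, Klp10A, retn and CG15628 were called with the brightness covariate, and the others were not.

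At 5 h alone the lines were set apart by early zygotic and cellularisation genes, which were lower in Drosophila_58. Of 17 early zygotic and cellularisation genes 13 were called lower and 0 higher at 5 h, against 2.67% of all genes called in each direction, and all 17 were negative, with a median of -1.15. At 8 h 0 were called by limma and 1 had an unadjusted p under 0.05, with a median of -0.04. With array brightness as a covariate 8 were called lower at 5 h, and 10 to 13 were when each of the 8 arrays was left out. The summed intensity of the list at 5 h was 276.1 and 385.5 in Drosophila_58 and 1787.6 and 1693.2 in Drosophila_134. The other 7 lines spanned 133.6 to 1751.7 at 5 h with a median of 665.8, so Drosophila_134 stood at their upper end or just above it and Drosophila_58 in their lower part.

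slam, which brings membrane to the cleavage furrow, read 45.5 and 71.7 at 5 h in Drosophila_58 and 409 and 409 in Drosophila_134, while at 8 h it read 4.42 and 3.71 in Drosophila_58 and 10.5 and 5.81 in Drosophila_134. The 5 h difference was -2.53 ± 0.28 (adjusted p = 4.2e-07) and differed from that at 8 h by 2.27 (adjusted p = 0.0033). The droplet-transport gene halo read 18.4 and 32.8 at 5 h in Drosophila_58 and 229 and 162 in Drosophila_134 (-2.35 ± 0.29). For Z600, an inhibitor of mitosis, the 5 h values were 34.6 and 50.5 in Drosophila_58 and 271 and 246 in Drosophila_134 (-2.24 ± 0.28), and for the furrow actin regulator Sry-alpha 13.9 and 21.0 in Drosophila_58 and 143 and 104 in Drosophila_134 (-2.05 ± 0.26). None of these overlapped at 5 h. Bro, the partner of Runt-domain factors, read 2.55 and 3.87 at 5 h in Drosophila_58 and 32.3 and 37.3 in Drosophila_134 (-1.40 ± 0.11, adjusted p = 3.3e-10), and all of its 8 h values were under 1. SNCF (-2.20 ± 0.44) and bard (-1.58 ± 0.17) were also called lower at 5 h.

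Segmentation genes were also called lower in Drosophila_58 at 5 h. Of 8 pair-rule genes 6 were called lower and 0 higher, and of 11 gap, terminal and head gap genes 4 were called lower and 0 higher; on the deposited scale these counts were 3 lower and 2 higher, and 1 lower and 1 higher. With the brightness covariate 3 pair-rule genes and 1 gap gene were called lower. The pair-rule gene eve read 1.89 and 1.12 at 5 h in Drosophila_58 and 16.4 and 13.7 in Drosophila_134 (-0.83 ± 0.11), and prd differed by -0.81 ± 0.14. Without replicate 1 of Drosophila_134, or either replicate of Drosophila_58, at 5 h the 6 pair-rule calls came down to 3, and without replicate 1 of Drosophila_58 at 5 h the 4 of the gap list to 2. The gap gene gt differed by -0.86 ± 0.17, and the mesoderm determinant twi by -1.22 ± 0.19. At 8 h 0 pair-rule genes were called by limma, and 0 had an unadjusted p under 0.05. Of 41 proteasome genes 6 were called lower at 5 h (14.6%, against 2.67% of all genes) and 0 higher. As a whole the list differed little, with a median of -0.07, 27 genes negative and 14 positive. Prosalpha2 read 91.4 and 70.4 at 5 h in Drosophila_58 and 264 and 218 in Drosophila_134 (-1.41 ± 0.21), and Prosbeta4 differed by -1.27 ± 0.25; on the deposited scale 6 of the list were called higher and 0 lower at 5 h, with these 2 still negative. The 6 lower calls came down to 2 without replicate 2 of either line at 5 h and with the brightness covariate, and to 3 without replicate 1 of Drosophila_58, and the call of Prosbeta4 was lost without replicate 2 of Drosophila_134 at 5 h (adjusted p = 0.066).

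Of 14 Notch-responsive genes of the Enhancer of split complex and the Bearded family 6 were called higher in Drosophila_58 at 5 h (42.9%, against 2.67% of all genes) and 0 lower. These calls rested on single arrays: 0 were left without replicate 2 of Drosophila_134 or replicate 1 of Drosophila_58 at 5 h (limma; 7 had an unadjusted p under 0.05 with all arrays), 1 without replicate 2 of Drosophila_58, 3 without replicate 1 of Drosophila_134 and 1 with the brightness covariate. E(spl)m3-HLH, a repressor switched on by Notch, read 12.7 and 9.85 at 5 h and 24.2 and 26.3 at 8 h in Drosophila_58, against 3.06 and 0.268 at 5 h and 10.7 and 4.91 at 8 h in Drosophila_134 (0.72 ± 0.09 over both times, adjusted p = 2.9e-06). At 8 h 1 gene of the list was called higher and 1 lower. The lower one was BobA of the Bearded family, at 80.3 and 76.5 in Drosophila_58 and 236 and 246 in Drosophila_134 (-1.45, adjusted p = 0.012), which turned to 0.02 at 8 h on the deposited scale. The call of BobA was lost without replicate 2 of Drosophila_134 or either replicate of Drosophila_58 at 8 h (adjusted p 0.083 to 0.12). The neuropeptide precursor gene Nplp2 was called at 5 h alone (1.96 ± 0.57, adjusted p = 0.043), with 39.8 and 2.97 in the 2 arrays of Drosophila_134, and its call was lost in 5 of the 8 fits that left out 1 array (adjusted p up to 0.53 without replicate 2 of Drosophila_134 at 5 h; also without any array of Drosophila_58).

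**Figure D3:**
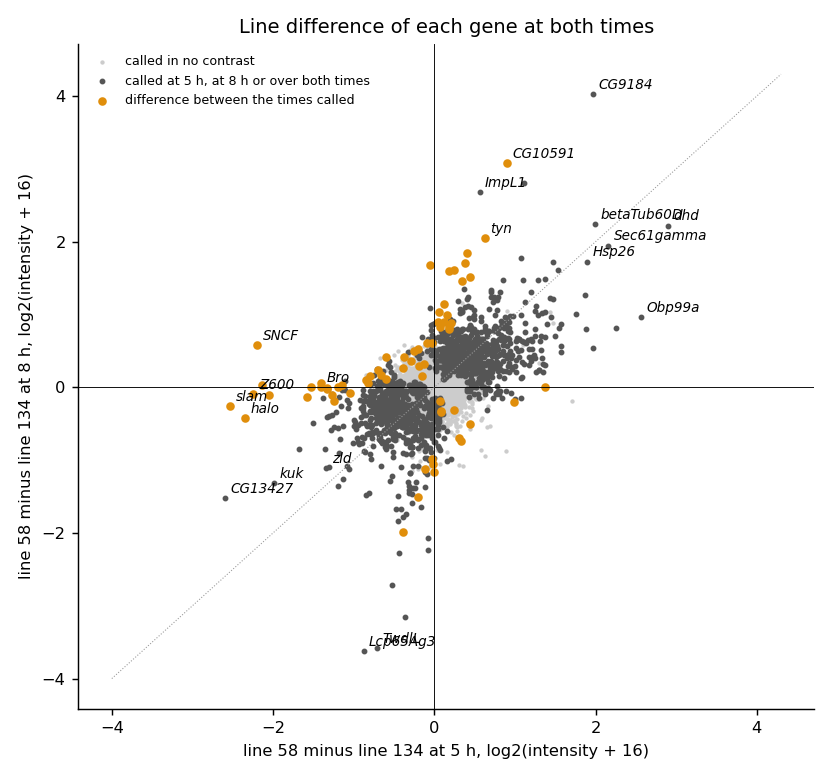
Difference of Drosophila_58 minus Drosophila_134 on the log2(intensity + 16) scale at 5 h (horizontal) and 8 h (vertical) for 11982 genes; dark points were called in at least one contrast, orange points had a called difference between the times, and the dotted line marks equal differences. slam, halo, Z600 and SNCF lie to the left near 0 at 8 h, the cuticle genes TwdlL and Lcp65Ag3 lie at the bottom near 0 at 5 h, and dhd, betaTub60D and Sec61gamma lie near the dotted line.

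At 8 h the lines differed in 2 kinds of gene of the body surface, in opposite directions. Genes of the apical matrix were higher in Drosophila_58. tyn, which codes for a zona pellucida domain protein that shapes the epidermal apical surface, read 53.7 and 59.9 at 8 h in Drosophila_58 and 2.87 and 0.353 in Drosophila_134 (2.05 ± 0.22, adjusted p = 2e-07). At 5 h it read 7.29 and 26.4 in Drosophila_58 and 9.15 and 0.560 in Drosophila_134, which overlap (0.62 ± 0.22, adjusted p = 0.11). Other members of this protein family, mey and neo, were higher at 8 h by 1.71 ± 0.18 and 1.03 ± 0.14, and mey was at least 7.9-fold higher, since it was not above the limit in Drosophila_134 there. In the list of 6 zona pellucida and apical matrix genes, put together after these data were seen, 3 were called higher at 8 h and 0 lower, and 3 with the brightness covariate. Of 18 epidermis and cuticle markers 6 were called higher at 8 h (33.3%, against 2.7% of all genes) and 2 lower (11.1%, against 2.04%). With the brightness covariate 0 were called in either direction in limma (12 had an unadjusted p under 0.05 without it). The 6 came down to 1 without replicate 2 of Drosophila_58 at 8 h, and to 3 or 4 without any one of the other three arrays at 8 h. The chitin deacetylase gene verm was higher by 0.97 ± 0.25 (adjusted p = 0.017), a call that was lost without any one of the 4 arrays at 8 h (adjusted p 0.057 to 0.17). The shavenbaby locus ovo, which drives epidermal shape, was called at 5 h (0.72 ± 0.20, adjusted p = 0.029) and not at 8 h (0.47 ± 0.20, adjusted p = 0.23).

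Of 14 ecdysone response genes 2 were called higher in Drosophila_58 at 8 h and 0 lower, ImpE1 and ImpE2; 1 was called without replicate 2 of Drosophila_58 at 8 h, and 1 with the brightness covariate. ImpE1 read 11.8 and 17.1 at 8 h in Drosophila_58 and 1.42 and 0.221 in Drosophila_134, where it was not above the limit, and was at least 3-fold higher (adjusted p = 0.00081; 0.053 without that array and 0.10 with the covariate). ImpE2, with 31.2 and 39.8 in Drosophila_58 and 1.55 and 0.448 in Drosophila_134, was at least 7.45-fold higher (adjusted p = 4.8e-07). ImpL1, an ecdysone-inducible gene outside that list, read 68.5 and 116 at 8 h in Drosophila_58 and 0.317 and 0.658 in Drosophila_134, at least 18.9-fold higher (adjusted p = 9.4e-05; 0.081 with the brightness covariate). The 2 lines did not overlap for these 3 genes. ImpE1 and ImpE2 made up 14.3% of the ecdysone response list, against 2.7% of all genes called higher at 8 h. CG10591 was at least 27.2-fold higher at 8 h, at 117 and 141 in Drosophila_58 and 1.80 and 0.535 in Drosophila_134, and Neurochondrin was higher by 1.51 ± 0.18.

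Cuticle proteins went the other way. Of 104 genes of the cuticle protein families 15 were called lower in Drosophila_58 at 8 h (2.04% of all genes) and 0 higher, but 0 of the 104 were measured on 18 or more arrays, since most arrays lay under the limit. The lower calls numbered 4 on the deposited scale, 6 with centred arrays and 19 at a common 90th percentile, with 0 higher in each. TwdlL, a Tweedle protein of the larval cuticle, read 1.87 and 0.196 at 8 h in Drosophila_58 and 267 and 130 in Drosophila_134 (-3.58 ± 0.55, adjusted p = 4.9e-05). TwdlB was at least 57.8-fold lower in Drosophila_58, TwdlM differed by -3.16 ± 0.53, and the chitin-binding protein gene obst-E was at least 13.1-fold lower. Lcp65Ag3, one of a set of near-identical larval cuticle genes and uncertain for that reason, differed by -3.62 ± 0.78, and its call was lost without replicate 1 of Drosophila_134 or replicate 2 of Drosophila_58 at 8 h (adjusted p = 0.10 and 0.066). Without that replicate 2 of Drosophila_58 the 15 calls of the list came down to 6. The 2 lines did not overlap at 8 h for these genes.

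Cuticle transcripts also varied widely between arrays elsewhere. The summed intensity of the cuticle list at 8 h was 158.3 and 75.6 in Drosophila_58 and 1551.8 and 917.2 in Drosophila_134, and 60.5 to 1685.2 in the other 7 lines. At 5 h it was 79.3 and 152.0 in Drosophila_58 and 377.2 and 89.8 in Drosophila_134. With array brightness as a covariate 1 gene of the list was called lower at 8 h and 0 higher. Cuticle proteins are known as products of late embryos, and whether the collections held embryos of unequal age was not tested.

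**Figure D4:**
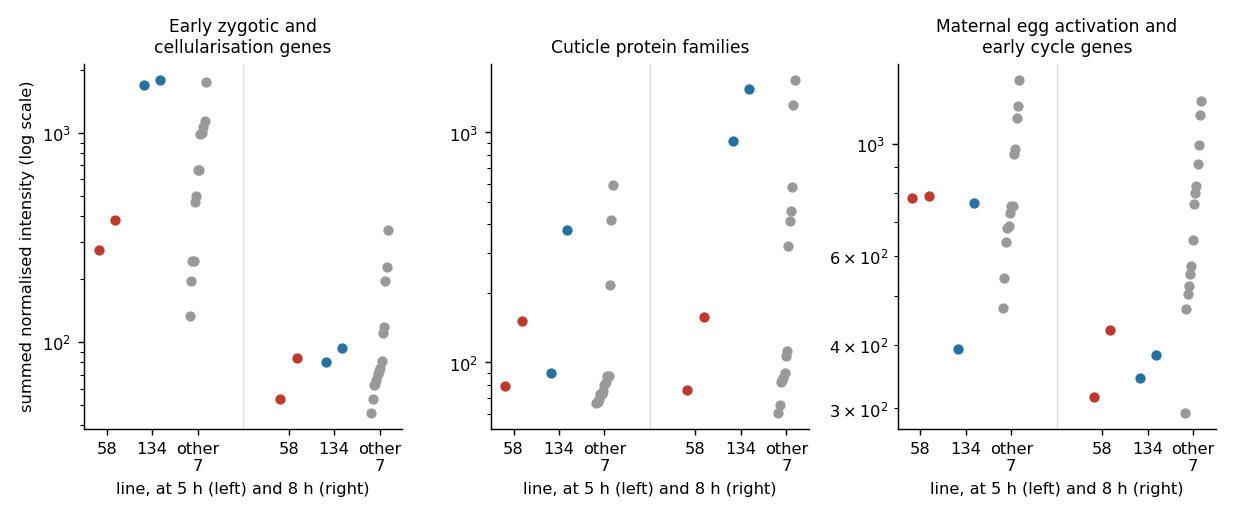
Summed quantile-normalised intensity (log axis) of 3 gene lists on each array at 5 h (left) and 8 h (right) for Drosophila_58 (red), Drosophila_134 (blue) and the other 7 lines (grey). Drosophila_134 exceeds Drosophila_58 in early zygotic genes at 5 h and in cuticle genes at 8 h, and the 2 arrays of Drosophila_134 at 5 h lie apart in cuticle and maternal genes.

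A score of developmental progress was set beside these differences. It is the mean over 200 probe sets with the steepest rise over time across the other 7 lines minus the mean over 200 with the steepest fall, and it uses no array of either line. At 5 h it was -0.08 and 0.01 in Drosophila_58 and -0.60 and -0.81 in Drosophila_134, while the other 7 lines spanned -1.02 to -0.53. At 8 h it was 0.89 and 1.08 in Drosophila_58 and 1.04 and 0.92 in Drosophila_134, with the other lines between -0.52 and 0.84. Drosophila_58 thus read later than Drosophila_134 at 5 h and overlapped with it at 8 h. The difference averaged over the times was 0.34 (two-sided exact permutation test over 36 arrangements, p = 0.167), in a design whose smallest possible p is 0.056. Of 383 probe sets that rose with time in the other 7 lines, 66 were called higher and 4 lower in Drosophila_58 at 5 h, and of 299 that fell, 26 were called higher and 66 lower. At 8 h these counts were 44 higher and 24 lower, and 7 higher and 8 lower. Of all probe sets 2.16% were called higher and 2.14% lower at 5 h, and 2.17% and 1.79% at 8 h. The 7 and 8 of the 299 at 8 h lay near these shares.

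Drosophila_58 and Drosophila_134 each held part of the differences at the edge of the series. Of the 846 probe sets higher in Drosophila_58, the mean of Drosophila_58 alone lay outside the range of the other 7 lines for 435, that of Drosophila_134 alone for 208, both for 143 and neither for 60. Of the 659 lower ones these counts were 214, 227, 110 and 108. Sec61gamma, Fer1HCH, Fer2LCH and RpS5b ranked highest of the 9 lines in Drosophila_58 and lowest in Drosophila_134, whereas betaTub60D ranked highest in Drosophila_58 and 4th in Drosophila_134. Among the 36 pairs of lines the number of called probe sets ran from 52 to 2312, and 1505 for this pair was the fifth highest.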

How the data were processed

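Intensities were deposited by the authors on a linear scale for 18952 probe sets on 36 arrays; the software behind them is not given in the sources used here. After 183 control probe sets were left out, 18769 were quantile normalised over the 36 arrays and transformed as log2(intensity + 16); 91.3% of values lay under the pseudocount of 16. limma 3.58.1 in R 4.3.3 (lmFit, and eBayes with a trend) was fitted to means of line and time over 35 arrays (17 residual degrees of freedom), with Benjamini-Hochberg adjustment over 18769 probe sets and calls at an adjusted p of 0.05. The contrast over both times averages the line differences at 5 h and 8 h. The negative-control limit is the 99th percentile of 50 control probe sets taken by their names, which no source used here states to be negative controls. A bound such as at least 7.9-fold sets the bright line against the higher of that limit and the dim value. The script was tested on simulated data.

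Symbols came from the platform annotation, updated through RefSeq: 13647 probe sets had 1 symbol, 402 several and 4720 none here, and 13544 matched. For each of 11982 genes the probe set with the highest mean was kept. The lines compared, and the gene lists, were chosen with earlier results of these data known, and 3 lists were added after these values were seen. Genes were named by a rule: the largest called differences over both times without overlap, above the limit on at least 3 of 4 arrays of the higher line (15 named and 4 numbered in each direction); the 5 largest at 1 time alone; the 10 largest between the times; and up to 4 called members of each list. Sec61beta, TRAM, Trp1, Cnx99A, KdelR, bai, Hsc70-4, vkg, Srrm234 and milt stand outside it and were chosen after their values were seen. Same-numbered RNA samples of the 2 lines deviated at r of -0.13 and -0.09. Alternatives were 4 scalings, pseudocounts of 4 and 64, measured probe sets only, the 8 arrays alone, covariates for array brightness and the Act5C ratio, a replicate block and leaving out each array.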

Additional observations from a re-analysis of the deposited data

Results flagged for a closer look

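The line difference itself changed between 5 h and 8 h for 85 probe sets in the limma interaction contrast (0.453% of those tested), 60 with a larger value at 8 h and 25 with a smaller one. The values below are the difference of Drosophila_58 minus Drosophila_134 at 8 h minus that at 5 h. Early zygotic and cellularisation genes, lower in Drosophila_58 at 5 h with no called difference at 8 h, had 2.77 for SNCF, 2.27 for slam, 2.15 for Z600, 1.95 for Sry-alpha, 1.93 for halo, 1.44 for bard and 1.40 for Bro. The pair-rule gene eve had 0.89 and the proteasome gene Prosalpha2 1.46. Genes higher in Drosophila_58 at 8 h, and with smaller differences at 5 h, had 2.18 for CG10591, 1.43 for tyn, 1.41 for ImpE2, 1.33 for mey and 1.07 for Neurochondrin. Among these 14 genes, bard, Bro and eve stayed called whichever of the 8 arrays was left out. SNCF kept its call in 1 of the 8 such fits (adjusted p up to 0.20 without replicate 1 of Drosophila_58 at 8 h), Neurochondrin in 2, and halo and tyn in 3 each; without replicate 1 of Drosophila_58 at 5 h the adjusted p was 0.29 for Neurochondrin, 0.19 for halo and 0.33 for tyn. The other genes kept theirs in 5 to 7 fits. The cuticle genes, with -2.87 for TwdlL and -2.80 for TwdlM, were not called between the times (adjusted p = 0.10 for both).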

How the results depend on the processing

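Against 1505 probe sets over both times, 3700 were called on the deposited scale, 3295 with centred arrays, 146 with array brightness as a covariate, 780 with the Act5C ratio as a covariate (chosen after seeing the data) and 984 with the 8 arrays alone. Against 808 at 5 h the counts were 1840, 1673, 227 and 200 under the first 4 of these, and against 743 at 8 h they were 1610, 1333 and 110 under the first 3 and 1224 at a common 90th percentile. Against 85 between the times they were 22 on the deposited scale, 20 with centred arrays, 49 with the 8 arrays alone, 19 with a pseudocount of 4 and 129 with 64. Leaving out 1 array at a time gave 982 to 1906 over both times (993 without replicate 2 of Drosophila_58 at 5 h, 982 without replicate 2 at 8 h), 229 to 865 at 5 h (376 without replicate 2 of Drosophila_134, 305 and 229 without replicates 1 and 2 of Drosophila_58), 240 to 1240 at 8 h (1240 and 405 without replicates 1 and 2 of Drosophila_134, 379 and 240 without those of Drosophila_58) and 20 to 264 between the times (264 without replicate 1 of Drosophila_134 at 8 h, 21 and 36 without replicates 1 and 2 of Drosophila_58 at 5 h, 49 and 20 without those at 8 h). Of 90 named genes called over both times, 57 were not called with the brightness covariate, 28 on the deposited scale, 26 with centred arrays, 20 with the Act5C ratio and 2 at a common 90th percentile; 2 more were called in the other direction on the deposited scale and 2 with centred arrays. Signs turned with the brightness covariate for Jabba (-0.18) and SNCF (0.16); on the deposited scale for Sumo (0.31), D1 (0.01), Fkbp39 (0.07), CG13551 (0.01), Prosalpha2 (0.14), Prosbeta4 (0.16), eIF4A (0.83), eEF1delta (0.29), BobA (0.10) and Hsc70-4 (1.23); with centred arrays for Sumo (0.28), Fkbp39 (0.04), Prosalpha2 (0.11), Prosbeta4 (0.12), eIF4A (0.80), eEF1delta (0.26), BobA (0.07) and Hsc70-4 (1.20); and for Hsc70-4 (0.08) at a common 90th percentile. The cause was not tested. The replicate block, where numbers are shared only as labels, gave 1536, 829, 756 and 84 calls in the 4 contrasts and changed no call of the genes named. The developmental score difference stayed positive in all 12 alternatives (0.17 to 0.51). Brightness limits the dim arrays of Drosophila_134, and the brightness covariate rests on differences between RNA samples of one line and time.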

Other observations

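Genes read by several probe sets gave a partial check of the line differences. Of 165 genes with at least 2 measured probe sets, 62 had a called one; every probe set stood on the same side of 0 in 35 of these and was called in 12. In 3 genes, CG5953, Srrm234 and milt, probe sets were called in opposite directions, so the value of CG5953 (1.15 ± 0.27 over both times) depends on the probe set; its call was also lost without replicate 2 of Drosophila_58 at 5 h (adjusted p = 0.052).

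Called genes were spread over the chromosome arms. Among measured genes the share called over both times was 17.7% of 865 on the X, 18.7% of 939 on 2L, 18.6% of 1061 on 2R, 17.4% of 1014 on 3L, 18.1% of 1295 on 3R and 25.8% of 31 on chromosome 4.

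Lists with 0 genes called over both times were those for Hox genes (0 of 4 called by limma, 0 with an unadjusted p under 0.05), apoptosis (0 of 7 and 2), histones (0 of 3 and 0), follicle cells and eggshell (0 of 15 and 3), adult midgut proteases (0 of 23 and 2), ecdysteroid synthesis (0 of 7 and 0) and antimicrobial peptides (0 of 9 and 1). Of 214 odorant-binding and chemosensory genes 2 were called higher in Drosophila_58 (0.935%, against 5.62% of all genes) and 0 lower, Obp99a among them.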
